A study of Homo sapiens with 24 samples.

Results

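The comparison described here is parental MCF-10A cells after 48 h of 4-hydroxytamoxifen (4-OHT) against the same cells at 0 h, in 3 libraries each, so 6 of the 24 libraries of the series, chosen by their labels alone. MCF-10A is an immortalised, non-tumorigenic human mammary epithelial line that grows into hollow spheres on Matrigel, a basement membrane extract. The parental cells do not carry MYC-ER, a MYC protein fused to the domain of the oestrogen receptor that binds hormone, which the other 12 libraries have, so the comparison concerns 1 μM 4-OHT in the absence of the fusion. Cells of both groups were grown in 3D, treatment began on day 3 at the earliest, and all cultures were harvested together on day 5, so the groups differ in hours of exposure and not in days of culture. The labels do not say whether the 0 h wells received the solvent alone, and they do not name separate cultures or days for the replicates, so p-values measure the spread between these libraries, which may be technical.

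4-OHT is the active metabolite of tamoxifen. It binds oestrogen receptors and blocks or activates them depending on the tissue, and tamoxifen and its metabolites are also known to bind enzymes of late cholesterol synthesis. Cells that sense a shortage of sterol in the endoplasmic reticulum release the transcription factor SREBP2, which raises the genes of the cholesterol pathway. ESR1, the gene of oestrogen receptor alpha, was low, at 0.178, 0.2399 and 0.131 CPM at 0 h and 0.159, 0.115 and 0.159 CPM at 48 h. The groups overlapped, with a fitted change of -0.34 log2 units (SE 0.39, adjusted p = 0.57). Levels are given as CPM, counts scaled to library size with TMM factors over all 24 libraries.

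Genes called higher at 48 h included 10 of 24 of cholesterol synthesis, 12 of 31 of the hypoxia response and 12 of 27 of the activin and TGF-beta pathway, where 8.32% of all genes tested were called higher and 8.32% lower. Genes called lower included suprabasal and stress keratins, S100 proteins, serum amyloid, 12 of 28 S phase genes and 27 of 46 respiratory chain subunits. Once trends with transcript GC content and length were removed, 16 cholesterol, 19 hypoxia and 8 activin pathway genes were higher (4.54% of all genes). Called lower were then 1 hypoxia gene, 13 S phase genes and 14 respiratory chain subunits (4.46% of all genes). Calls over all genes ran from 4 to 7888 when 1 library was left out. The 2 genes with the smallest adjusted p among those named below moved in opposite directions. SEMA6A, a membrane-bound semaphorin, was at 24.2, 27.7 and 25.7 CPM at 0 h and 59.6, 64.6 and 63.9 CPM at 48 h. KRT10, the keratin of differentiating suprabasal cells, was at 563, 533 and 523 CPM at 0 h and 219, 183 and 188 CPM at 48 h. For both genes the 3 libraries of a group lay close together and far from the other group, which their choice by adjusted p favours. Both stayed past the threshold whichever of the 6 libraries was left out.

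The libraries held 149204049 to 182438505 counts, and 18973 to 20161 genes had at least 10 counts. A gene with 0 counts in the smallest library of the series may lie anywhere up to 0.0219 CPM, taking 3 counts as the limit a count of 0 allows, which covers counting error only. No replicate pair agreed within sampling noise, with a chi-square per degree of freedom of at least 13.9 between members of a pair. Replicate 2 of the 0 h group stood apart. Its Spearman correlation with the other 0 h libraries was 0.9898 and 0.9853, below its correlation of 0.9902 to 0.9915 with the 48 h libraries, and over the whole series its most similar library was parental 8 h replicate 2. The median SD of log2 CPM within a group was 0.2386 at parental 0 h and 0.0825 to 0.14 in the other 7 groups.

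The change also followed the base composition of the transcripts. The count-weighted GC content was 51.5, 50.3 and 51.4% in the 0 h libraries and 49.7, 50.1 and 49.9% in the 48 h libraries, and the groups did not overlap (exact permutation test, two-sided, p = 0.1, the smallest that 3 against 3 allows). Across 9893 genes of at least 10 CPM, Spearman's rho of the log2 change was -0.671 with GC content and 0.629 with length of the longest transcript. With GC content and length as medians over all transcripts, rho was -0.633 and 0.184 across 9905 genes. The relation to length thus depends on the definition. These are correlations across genes, which are not replicates. In the third of genes with the lowest GC content 1164 were called higher and 58 lower, and in the third with the highest GC content 93 were higher and 1238 lower. The same trend separated replicate 2 from replicates 1 and 3 within the 0 h group, with rho of -0.705 for GC content and 0.63 for length, while the MYC-ER line at 48 h against 0 h showed 0.029 and -0.112. The counts with each library's GC and length trends removed are therefore given beside each gene list.

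**Figure D1:**
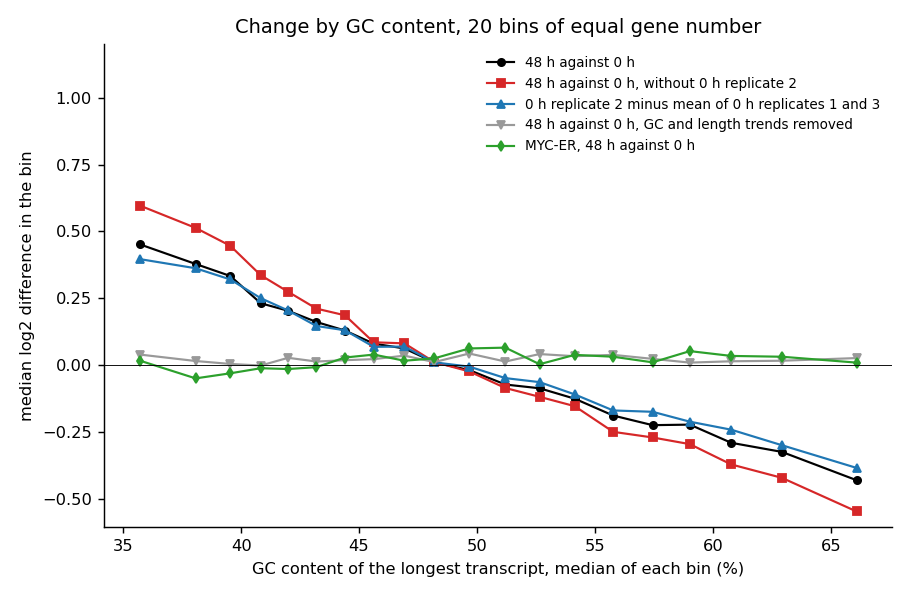
Median log2 difference (vertical axis) in 20 bins of genes ordered by the GC content of their longest transcript (horizontal axis, %), for 5 comparisons. The parental change at 48 h falls from 0.451 in the bin of lowest GC content to -0.431 in the highest, the difference of 0 h replicate 2 from replicates 1 and 3 falls from 0.396 to -0.385, and the MYC-ER change stays between -0.05 and 0.065.

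Of 19680 genes tested with edgeR's quasi-likelihood test, 3274 (16.6%) passed an adjusted p of 0.05 between 48 h and 0 h, 1637 higher (8.32%) and 1637 lower (8.32%). The changes were mostly small: 319 genes (1.62%) also changed at least 2-fold, 221 upward (1.12%) and 98 downward (0.498%). The number of calls is not a stable quantity here. Of the 3274 calls, 3140 had an adjusted p of 0.03 or more, close to the threshold, and the count fell to 4 without 0 h replicate 1, 97 without 0 h replicate 3, 51 without 48 h replicate 1, 14 without 48 h replicate 2 and 9 without 48 h replicate 3. It rose to 7888 (39%) without 0 h replicate 2 and to 8978 (40.5%) when the spread was estimated over all 24 libraries, was 1771 (9%) with the GC and length trends removed, and was 13 with no filter on low counts. All 3274 genes kept the sign of their change in each of the 6 fits that left out 1 library. That result was nearly fixed in advance. For 3270 of these genes, all 48 h libraries lay on 1 side of all 0 h libraries. Leaving out 1 library can then hardly turn the sign, so these fits do not test how steady the direction is. "Rose" and "fell" below mean that a gene passed the threshold in the fit of all 6 libraries. Of 126 genes tracked by name below, 120 passed it there, 2 in all 6 fits that left out 1 library and 94 in at most 1 of those fits.

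**Figure D2:**
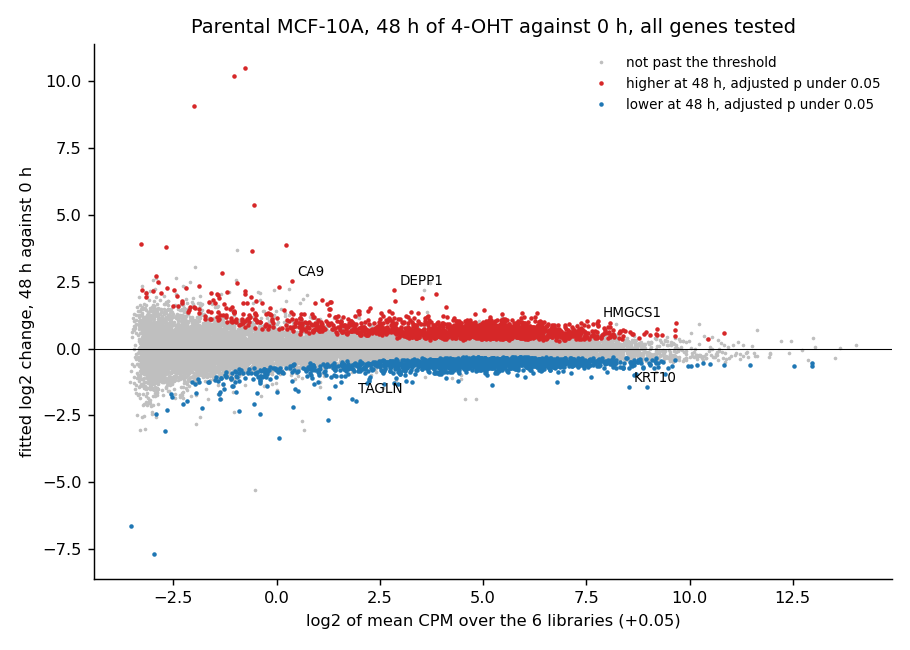
Fitted log2 change at 48 h against 0 h (vertical axis) by log2 mean CPM (horizontal axis) for the 19680 genes tested in parental MCF-10A, with 1637 genes called higher in red and 1637 called lower in blue. Most called genes lie within 1 log2 unit of 0, and the points beyond 5 log2 units all have a mean under 1 CPM.

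Among the 12 largest rises were genes of starvation, low oxygen and the cell surface. DEPP1, a target of the FOXO transcription factors, was at 2.38, 2.2 and 3.21 CPM at 0 h and 9, 14.2 and 12.02 CPM at 48 h, with a fitted change of 2.18 log2 units (SE 0.21, adjusted p = 0.00725). The highest 0 h library was well below the lowest 48 h library. EGLN3, a prolyl hydroxylase induced by hypoxia, was at 5.31, 4.22 and 7.33 CPM at 0 h and 14.6, 29.1 and 25.9 CPM at 48 h, with a fitted change of 2.05 log2 units (SE 0.28, adjusted p = 0.0182). LOXL2, an enzyme that crosslinks collagen, was at 2.94, 2.67 and 4.199 CPM at 0 h and 7.44, 13.99 and 12.2 CPM at 48 h, with a fitted change of 1.78 log2 units (SE 0.25, adjusted p = 0.0198). In both EGLN3 and LOXL2 replicate 1 was the lowest of the 48 h libraries. INHBA, which encodes the subunit of activin A, was at 5.1, 6.06 and 3.63 CPM at 0 h and 18.9, 19.4 and 16.1 CPM at 48 h, with a fitted change of 1.88 log2 units (SE 0.19, adjusted p = 0.00725).

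The other rises included REL, an NF-kB subunit, at 4.57, 17.2 and 4.496 CPM at 0 h and 25.9, 24.9 and 26.4 CPM at 48 h. For REL, 0 h replicate 2 was more than 3 times as high as the other 0 h libraries, and the change of 1.56 was 2.51 without that library and 1.08 (adjusted p = 0.0767) with the GC and length trends removed. NCR3LG1, a ligand of a natural killer cell receptor, rose by 1.45, and ITPR1, a calcium channel of the endoplasmic reticulum, by 1.37. The integrin subunits ITGA2, part of a collagen receptor, and ITGB8, part of a receptor that activates latent TGF-beta, rose by 1.31 and 1.32. ITGA2 was at 36.9, 66.6 and 34.1 CPM at 0 h and 112, 112 and 116 CPM at 48 h, so the 48 h libraries agreed closely while 0 h replicate 2 lay between the groups. SLITRK6, a membrane protein with leucine-rich repeats, rose by 1.3 and SEMA6A by 1.28. BCL2L2-PABPN1 rose by 1.32, but it is an annotated read-through of a pair of neighbouring genes and its count is uncertain.

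The 12 largest falls included 2 keratins and 4 S100 calcium-binding proteins. KRT10 fell, with a fitted change of -1.45 log2 units (SE 0.11, adjusted p = 0.00194). KRT16, a keratin induced by stress and wounding, was at 839, 580.1 and 793 CPM at 0 h and 257, 288 and 268 CPM at 48 h, with a fitted change of -1.44 log2 units (SE 0.15, adjusted p = 0.00725). The calcium-binding proteins S100P, S100A4, S100A8 and S100A9 fell by 1.34, 1.06, 1.05 and 1.00 on the log2 scale; S100A8 and S100A9 together form calprotectin. S100A9 was at 547, 406 and 651 CPM at 0 h and 245, 267 and 285 CPM at 48 h, with 0 h replicate 2 the lowest of its group. SAA1, an acute phase protein, was at 164, 125 and 176 CPM at 0 h and 66.04, 62.2 and 66.8 CPM at 48 h, with a fitted change of -1.25 log2 units (SE 0.13, adjusted p = 0.00849), though its near-identical neighbour SAA2 may share reads with it.

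GPNMB, a glycoprotein of lysosomes and melanosomes, was at 53.8, 61.8 and 44.02 CPM at 0 h and 23.9, 19.6 and 19.01 CPM at 48 h, with a fitted change of -1.34 log2 units (SE 0.15, adjusted p = 0.00962). ATOH8, a basic helix-loop-helix factor, fell by 1.26 and H1-2, a linker histone, by 1.21 on the log2 scale. C11orf98 and C4orf48, less studied genes, fell by 1.10 and 1.09. For C4orf48 the 0 h values of 11.9, 5.67 and 12.5 CPM placed replicate 2 next to the 48 h libraries, and the change with the GC and length trends removed was -0.20 (adjusted p = 0.308). Of the 24 genes, 24 remained past the threshold without 0 h replicate 2 and 22 with the trends removed (not REL and C4orf48). In at least 3 of the 6 fits that left out 1 library, 13 remained. Of all 3274 calls, 99.8% remained without 0 h replicate 2 and 32.6% with the trends removed. For the 319 calls of at least 2-fold the latter share was 58.9%. Leaving out 0 h replicate 2 raised the calls to 39% of all genes. That nearly all calls remained in that fit is therefore a weak test of them. By the rule that chose the 24 genes, the groups do not overlap for any of them. The groups did not overlap for 42.6% of all genes tested.

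**Figure D3:**
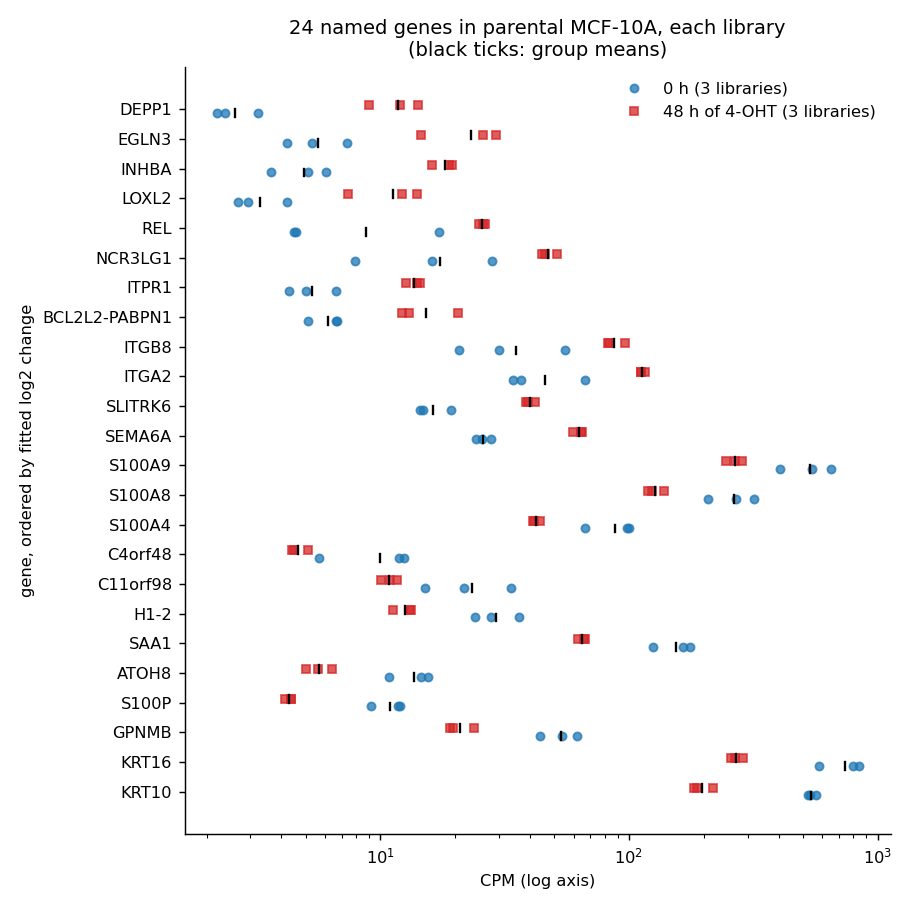
CPM in each library (horizontal log axis) of the 12 most raised and the 12 most lowered named genes, with 0 h libraries as blue circles, 48 h libraries as red squares and group means as black ticks. The groups do not overlap for any gene, and the 0 h circles of REL, NCR3LG1, ITGB8 and ITGA2 are spread more widely than their 48 h squares.

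The lists described next were written from general knowledge with earlier results of these data known, so their counts are read beside the share of all genes called, 8.32% in each direction, and beside a median log2 change of 0 over all genes. Leaving out 0 h replicate 2 raised the calls over all genes to 7888 (39%). Leaving out any other library lowered them, to as few as 4. The list counts without 0 h replicate 2 therefore do not show that the calls are steady. Among 24 tested genes of cholesterol synthesis and SREBP2 targets, 10 rose and 1 fell, with a median log2 change of 0.204. The counts were 10 higher and 5 lower without 0 h replicate 2 (all genes 20.2% and 18.8%), and 16 higher with the GC and length trends removed (4.54% and 4.46%). HMGCS1, the enzyme that makes HMG-CoA, was at 141, 169.6 and 128 CPM at 0 h and 272, 287 and 297 CPM at 48 h, with a fitted change of 0.97 log2 units (SE 0.12, adjusted p = 0.0171). Every 48 h library of HMGCS1 was above every 0 h library.

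Other members were called as well. INSIG1, the sterol-dependent anchor that keeps SREBP2 inactive, was at 63.5, 73.3 and 62.9 CPM at 0 h and 118, 124 and 129 CPM at 48 h, with a fitted change of 0.90 log2 units (SE 0.10, adjusted p = 0.00985). MSMO1, which removes methyl groups from lanosterol products, rose by 0.70, SC5D, a desaturase near the end of the pathway, by 0.82, CYP51A1 by 0.48 and SQLE, squalene epoxidase, by 0.39. STARD4, a sterol carrier, rose by 0.99. IDI1, an isomerase of the isoprenoid steps, rose by 0.40, which was 0.19 (adjusted p = 0.0922) with the trends removed. PMVK, a kinase of the mevalonate steps, was the exception and fell by 0.58, which was -0.13 (adjusted p = 0.375) with the trends removed. FDPS, which makes farnesyl diphosphate, was at 813, 663 and 855 CPM at 0 h and 832, 842 and 854 CPM at 48 h; the groups overlapped, and the change was 0.12 (adjusted p = 0.473) in the main comparison and 0.48 (adjusted p = 0.00899) with the trends removed.

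The promoters of 3 of the called sterol genes are printed because these genes moved together. They are the 250 bases before a start of each gene in RefSeq (GRCh38.p14), 5′ to 3′ on the gene's strand. CCAAT and its reverse complement ATTGG, the box bound by NF-Y, a factor that works with SREBP2, are in capitals. The start shown is the first whose 250 bases hold this box, so at least 1 match was fixed in advance.
HMGCS1 (chr5:43313413-43313662, minus strand): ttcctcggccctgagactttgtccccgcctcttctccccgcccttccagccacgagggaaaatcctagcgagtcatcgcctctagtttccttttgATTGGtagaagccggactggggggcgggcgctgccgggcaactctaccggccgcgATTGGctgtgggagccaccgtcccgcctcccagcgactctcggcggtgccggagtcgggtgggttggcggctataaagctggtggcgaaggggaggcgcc
INSIG1 (chr7:155297628-155297877, plus strand): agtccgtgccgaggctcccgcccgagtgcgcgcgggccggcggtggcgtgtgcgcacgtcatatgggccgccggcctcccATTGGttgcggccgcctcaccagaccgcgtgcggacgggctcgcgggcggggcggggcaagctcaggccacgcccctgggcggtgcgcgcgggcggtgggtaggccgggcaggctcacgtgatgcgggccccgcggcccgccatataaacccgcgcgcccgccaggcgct
MSMO1 (chr4:165327419-165327668, plus strand): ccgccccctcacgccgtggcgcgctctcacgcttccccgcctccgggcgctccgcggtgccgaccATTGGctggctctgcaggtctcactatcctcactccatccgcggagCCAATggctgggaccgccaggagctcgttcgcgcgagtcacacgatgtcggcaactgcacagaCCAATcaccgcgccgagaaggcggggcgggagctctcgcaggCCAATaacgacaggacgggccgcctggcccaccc
HMGCS1 held 2 matches, INSIG1 1 and MSMO1 4. On either strand CCAAT was in 16 of the 18 list members with a promoter in the table (88.9%), against 37% of 27305 genes with one, and in 6 of the 8 called members. A sterol regulatory element, searched by its full letters, was in 1 of the 18 (5.56%; all genes 0.0439%), CACCCCAC in 1 (5.56%; 2.97%), TCACCCCA in 2 (11.1%; 1.59%) and ATCACCC in 1 (5.56%; 2.51%). These 4 shorter and longer forms overlap each other and none was in a called member. In all, 11 motifs were searched over 5 gene lists, and a match is a description and not a site.

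Genes of the hypoxia response, which the transcription factor HIF raises when prolyl hydroxylases are idle, were tested next: of 31 12 rose, with a median of 0.323. The counts were 15 higher and 5 lower without 0 h replicate 2, and 19 higher and 1 lower with the trends removed. CA9, a carbonic anhydrase of the cell surface and a standard HIF target, was at 0.368, 0.251 and 0.488 CPM at 0 h and 0.9099, 3.04 and 2.39 CPM at 48 h, with a fitted change of 2.52 log2 units (SE 0.43, adjusted p = 0.0316). Replicate 1 was again the lowest of the 48 h libraries. NDRG1, a stress-induced protein, was at 575, 501 and 609 CPM at 0 h and 794, 1267 and 1159.8 CPM at 48 h, with a fitted change of 0.94 log2 units (SE 0.17, adjusted p = 0.0343). VEGFA, the angiogenic growth factor, was at 113, 119.6 and 105 CPM at 0 h and 179, 180.2 and 164 CPM at 48 h, with a fitted change of 0.64 log2 units (SE 0.10, adjusted p = 0.0232).

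Other HIF targets rose by less than 1 log2 unit. BNIP3L, which marks mitochondria for removal, rose by 0.81, PDK1, which keeps pyruvate from the mitochondria, by 0.85, and ENO2, an enolase, by 0.79. The histone demethylase KDM3A rose by 0.63, the repressor BHLHE40 by 0.62, the collagen hydroxylase P4HA1 by 0.58, the MYC antagonist MXI1 by 0.51 and the carbonic anhydrase CA12 by 0.52. All 12 calls remained past the threshold with the trends removed, and 8 further members passed it then, among them DDIT4, an inhibitor of mTORC1, at 0.32 (adjusted p = 0.0788) in the main comparison and 0.68 (adjusted p = 0.00813) with the trends removed.

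The promoter of CA9 is shown as the example of a HIF target that changed by over 2 log2 units. It is the 250 bases before a start in RefSeq (GRCh38.p14), 5′ to 3′. ACGTG, the core of the hypoxia response element, or its reverse complement CACGT is in capitals. The start was again the first whose 250 bases hold the core, so at least 1 match was fixed in advance.
CA9 (chr9:35673678-35673927, plus strand): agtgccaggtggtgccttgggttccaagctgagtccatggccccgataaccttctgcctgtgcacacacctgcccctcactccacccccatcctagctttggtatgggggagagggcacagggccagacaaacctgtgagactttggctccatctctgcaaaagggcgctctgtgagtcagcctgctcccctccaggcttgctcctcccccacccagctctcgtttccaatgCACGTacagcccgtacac
The promoter held 1 match. ACGTG was in 19 of 27 list members with a promoter (70.4%; 21.7% of all genes) and in 6 of the 9 called members. The longer ACGTGC, which contains it, was in 12 of 27 (44.4%; 7.11%) and in 3 of the 9 called members.

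Activins and TGF-beta signal through paired receptor kinases and SMAD proteins, and in epithelium they slow growth and raise matrix genes. Of 27 tested genes of this pathway 12 rose and 1 fell, with a median of 0.383. The counts were 15 higher and 3 lower without 0 h replicate 2, and 8 higher with the trends removed. Among the ligands, INHBA had the largest rise, and INHBB, a further activin subunit, was at 0.264, 0.0971 and 0.1903 CPM at 0 h and 0.428, 0.465 and 0.505 CPM at 48 h, with a fitted change of 1.35 log2 units (SE 0.37, adjusted p = 0.0427). FSTL3, a secreted activin inhibitor, fell by 0.57, which was -0.18 (adjusted p = 0.0873) with the trends removed. The latent TGF-beta binding proteins LTBP1 and LTBP2 rose by 0.58 and 0.70.

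Receptors and transducers changed less. TGFBR2 rose by 0.42 and SMAD3 by 0.38. TGFBR1, SMAD4 and the SMAD corepressor SKIL rose by 0.48, 0.47 and 0.75, but with the trends removed their changes were -0.01 (adjusted p = 0.917), -0.02 (adjusted p = 0.91) and 0.08 (adjusted p = 0.466). Of the target genes, THBS1, a matrix protein, rose by 0.65.

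Of 11 tested genes of the plasminogen system, which dissolves clots and matrix, 3 rose (median 0.191). The counts were 4 higher without 0 h replicate 2, and 5 higher with the trends removed. SERPINB2, an intracellular inhibitor of plasminogen activators, was at 1.08, 1.39 and 0.904 CPM at 0 h and 3.29, 4.45 and 3.38 CPM at 48 h, with a fitted change of 1.72 log2 units (SE 0.21, adjusted p = 0.0161), and SERPINE2 rose by 0.48. Among 17 basal cell and basement membrane genes 5 rose and 1 fell (median 0.373). The counts were 7 higher and 2 lower without 0 h replicate 2, and 3 higher with the trends removed. LAMA3, a laminin subunit, rose by 0.46, the collagen IV chain COL4A1 by 0.71 and the basal transcription factor TP63 by 0.59. KRT14, the main basal keratin, fell by 0.65 and was at 10725, 7571 and 10877 CPM at 0 h and 5519.7, 6271 and 6692 CPM at 48 h. With the trends removed LAMA3, TP63 and KRT14 did not pass the threshold.

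**Figure D4:**
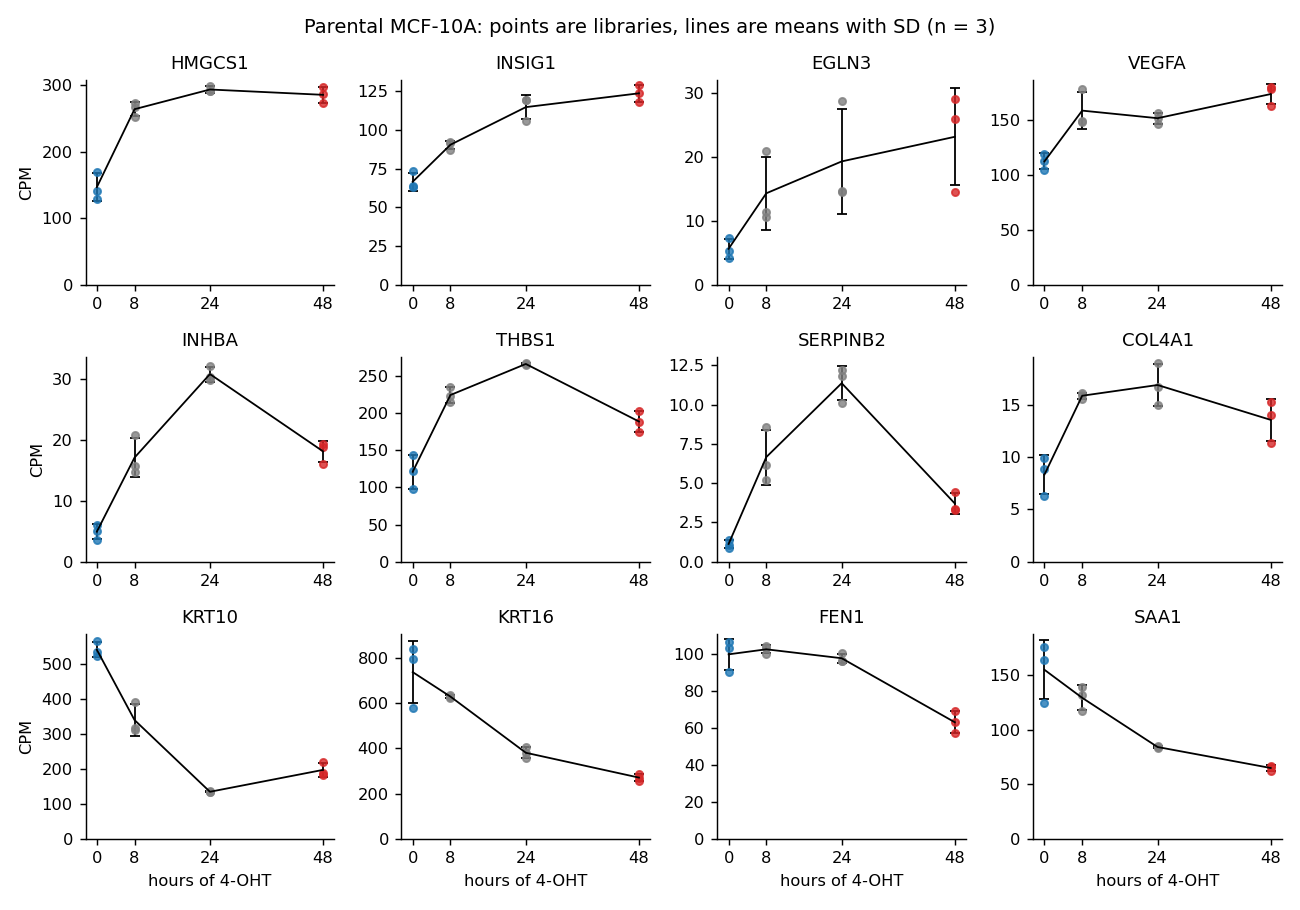
CPM (vertical axes, from 0) after 0, 8, 24 and 48 h of 4-OHT (horizontal axes) in parental MCF-10A for 12 genes of the text; points are libraries, and lines join means with SD (n = 3). HMGCS1 is above its 0 h level at 8, 24 and 48 h, INHBA and SERPINB2 are lower at 48 h than at 24 h, and FEN1 is lower at 48 h only.

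Of 33 tested genes of squamous differentiation, the program of stratified epithelium that MCF-10A cells can partly express, 2 rose and 9 fell. The median was -0.219 as deposited and 0.236 with the trends removed, so its sign depends on that step, and it was 0.001 without 0 h replicate 3. The counts were 3 higher and 12 lower without 0 h replicate 2, and 2 higher and 7 lower with the trends removed. Besides KRT10, KRT16, S100A8 and S100A9, the stress keratin KRT6B was at 578, 478 and 591 CPM at 0 h and 253, 305 and 299 CPM at 48 h, with a fitted change of -0.94 log2 units (SE 0.12, adjusted p = 0.018), and KRT6C fell by 0.73, though these near-identical keratins may share reads. SPRR1B, a cornified envelope protein, was at 164, 153 and 237 CPM at 0 h and 102, 92.4 and 97 CPM at 48 h, with a fitted change of -0.92 log2 units (SE 0.16, adjusted p = 0.0316). SPRR1A and PI3 (elafin, a protease inhibitor) fell by 0.76 and 0.69, which were -0.15 (adjusted p = 0.376) and -0.24 (adjusted p = 0.0915) with the trends removed. In the other direction DSG1, a desmosomal cadherin, rose by 0.94 and FLG, filaggrin, by 0.80, the latter 0.55 (adjusted p = 0.192) with the trends removed. TGAGTCA, an AP-1 site, was in 7 of 25 promoters of the list (28%; all genes 5.19%) and in 2 of the 7 called members.

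Replication genes are switched on by E2F factors as cells enter S phase. Of 28 S phase genes 12 fell, with a median of -0.226, and the counts were 1 higher and 15 lower without 0 h replicate 2, and 13 lower with the trends removed. E2F1, the transcription factor that drives entry into S phase, was at 19.99, 16.9 and 20.6 CPM at 0 h and 11.3, 12.3 and 12.3 CPM at 48 h, with a fitted change of -0.68 log2 units (SE 0.11, adjusted p = 0.0293). FEN1, the flap endonuclease, was at 103, 90 and 106 CPM at 0 h and 56.95, 63.05 and 68.8 CPM at 48 h, with a fitted change of -0.66 log2 units (SE 0.11, adjusted p = 0.0293). The replication factors GINS2, CDT1, CDC45 and CDC6 fell by 0.66, 0.62, 0.52 and 0.36, and PCNA, the sliding clamp, by 0.45 on the log2 scale. The E2F site TTTGGCGC was in 4 of 24 promoters of the list (16.7%; all genes 0.681%), TTTCGCGC in 3 (12.5%; 0.542%) and either in 6 (25%; 1.2%). Either site was in 2 of the 11 called members with a promoter.

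Of 26 genes of G2 and mitosis 7 fell, with a median of -0.075, which was 0.009 without 0 h replicate 2. The counts were 5 higher and 9 lower without 0 h replicate 2, and 12 lower with the trends removed. BIRC5 (survivin) was at 89.3, 68.9 and 85.6 CPM at 0 h and 45.5, 51.3 and 56.1 CPM at 48 h, with a fitted change of -0.67 log2 units (SE 0.13, adjusted p = 0.0354). UBE2C and CDC20, parts of the machinery that ends mitosis, fell by 0.55 and 0.52, and the cyclin CCNB2 by 0.37. With the trends removed CDC20 was at -0.16 (adjusted p = 0.119). MKI67, the proliferation marker Ki-67, was at 223, 229 and 174 CPM at 0 h and 216, 217 and 211 CPM at 48 h; the groups overlapped, and its change was 0.05 (adjusted p = 0.816) as deposited and -0.29 (adjusted p = 0.0312) with the trends removed, so its sign depends on that step.

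Of 46 tested nuclear subunits of oxidative phosphorylation 27 fell (58.7% called), with a median of -0.479. The counts were 1 higher and 39 lower without 0 h replicate 2, and 14 lower with the trends removed, and the median with the trends removed was -0.175. ATP5F1D, a subunit of ATP synthase, was at 162, 100.1 and 176 CPM at 0 h and 75.8, 82.02 and 78.4 CPM at 48 h, with 0 h replicate 2 nearer to the 48 h libraries than to its own group; its change was -0.88 (adjusted p = 0.036) as deposited and -0.17 (adjusted p = 0.103) with the trends removed. UQCRQ, a subunit of complex III, was at 243, 179 and 264 CPM at 0 h and 139, 141 and 144 CPM at 48 h, with -0.68 (adjusted p = 0.036) and -0.38 (adjusted p = 0.0298), and NDUFB7, a subunit of complex I, fell by 0.72, which was -0.06 (adjusted p = 0.69) with the trends removed. The 13 protein-coding genes of the mitochondrial genome had log2 changes from -0.09 to 0.9, with a median of 0.265 as deposited and 0.414 with the trends removed. Of the 13, 0 were called as deposited, 0 with the trends removed, and 2 were called higher without 0 h replicate 2. Without 0 h replicate 1 the median was -0.049, so 1 library decides its sign. The mitochondrial share of all counts was 3.86, 7.28 and 7.03% at 0 h and 7.78, 6.92 and 6.59% at 48 h, so 0 h replicate 1 was low and the groups overlapped.

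Of 70 cytosolic ribosomal protein genes 9 fell, with a median of -0.351 as deposited and -0.148 with the trends removed. The counts were 58 lower without 0 h replicate 2, and 3 lower with the trends removed. MYC itself, which the parental cells express from its own gene, was at 462, 535 and 599 CPM at 0 h and 486, 534 and 556 CPM at 48 h; the groups overlapped and the change was -0.01 (adjusted p = 0.959), with a sign that depends on the scaling. Of 32 MYC targets 7 fell (median -0.162), among them ODC1, the first enzyme of polyamine synthesis, by 0.38 and CCND2, a G1 cyclin, by 0.37. The counts were 3 higher and 13 lower without 0 h replicate 2, and 1 lower with the trends removed, and CCND2 was the call that remained of these 7, at -0.69 (adjusted p = 0.0125).

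Of 29 lysosome genes 2 rose and 10 fell (median -0.248). The counts were 7 higher and 18 lower without 0 h replicate 2, and 1 higher and 4 lower with the trends removed. CTSD, cathepsin D, was at 1340.4, 966 and 1328 CPM at 0 h and 695, 804 and 808 CPM at 48 h, with -0.65 (adjusted p = 0.036) as deposited and -0.22 (adjusted p = 0.102) with the trends removed. TFEB, the transcription factor of lysosome genes, fell by 0.51, while LIPA, the acid lipase that frees cholesterol from LDL, rose by 0.45 and the membrane protein LAMP2 by 0.44, the latter 0.05 (adjusted p = 0.568) with the trends removed. Of 19 FOXO and starvation targets 4 rose and 1 fell (median 0.17), and the counts were 9 higher and 1 lower without 0 h replicate 2, and 5 higher and 1 lower with the trends removed. Besides DEPP1 these were the transcription factor KLF9 by 0.73, SESN3 by 0.81 and the cyclin CCNG2 by 0.66, with a fall of 0.39 in the kinase PINK1. With the trends removed SESN3 and PINK1 did not pass the threshold.

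Among 17 inflammatory cytokine genes 7 rose and 2 fell, with a median of 0.251. The counts were 7 higher and 2 lower without 0 h replicate 2, and 8 higher and 2 lower with the trends removed. IL24, a cytokine of the IL-10 family, was at 0.147, 0.194 and 0.184 CPM at 0 h and 0.565, 0.586 and 0.505 CPM at 48 h, with a fitted change of 1.66 log2 units (SE 0.26, adjusted p = 0.0255). CCL20, a chemokine for dendritic and T cells, was at 2.24, 2.21 and 2.46 CPM at 0 h and 4.12, 3.89 and 4.2 CPM at 48 h, with a fitted change of 0.83 log2 units (SE 0.14, adjusted p = 0.0286). IL1A and IL1B rose by 0.54 and 0.68, TNFAIP3, an NF-kB feedback inhibitor, by 0.61, and CXCL8 by 0.60, which was 0.29 (adjusted p = 0.356) with the trends removed. The falls were SAA1 and SAA2, the latter by 0.96.

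Of 16 tested oestrogen response genes 3 rose (median 0.06; 4 higher without 0 h replicate 2, and 3 higher with the trends removed). They were the corepressor NRIP1 at 29.9, 42.2 and 20.1 CPM at 0 h and 55.8, 63.3 and 67.1 CPM at 48 h, with a fitted change of 1.02 log2 units (SE 0.23, adjusted p = 0.036), CA12, which the hypoxia list also holds, and the cadherin CELSR2 by 0.36. PGR, TFF1, TFF3 and CXCL12 of the list were too low to be tested. Among 10 targets of AHR, the dioxin receptor, 3 rose (median 0.052; 4 higher and 1 lower without 0 h replicate 2, and 2 higher with the trends removed). AHR itself rose by 0.84, its repressor TIPARP by 0.58 and ALDH1A3 by 0.48; AHR was 0.34 (adjusted p = 0.0641) with the trends removed. CYP1B1, another AHR target, was at 19.6, 26.2 and 16.6 CPM at 0 h and 19.8, 21.1 and 19.1 CPM at 48 h. The groups overlapped and the change was -0.05 (adjusted p = 0.857), and it was 0.148 without 0 h replicate 2. GCGTG, the core of the AHR element, was in 5 of 9 promoters of the list (55.6%; all genes 36.2%) and in 2 of the 3 called members.

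Stress lists were mixed. Of 22 ATF4 targets 2 rose and 6 fell (median -0.227; 2 higher and 11 lower without 0 h replicate 2, and 2 higher and 2 lower with the trends removed), with NUPR1, a stress-induced chromatin protein, at 122, 79.4 and 123 CPM at 0 h and 65.1, 61.1 and 61.4 CPM at 48 h and a fitted change of -0.78 log2 units (SE 0.16, adjusted p = 0.036). Of 16 genes of the endoplasmic reticulum unfolded protein response 5 fell (median -0.2; 3 higher and 6 lower without 0 h replicate 2, and 3 lower with the trends removed), among them the chaperones HSPA5 by 0.36 and CALR by 0.63. Of 16 NRF2 targets 2 rose and 5 fell (median -0.221; 3 higher and 8 lower without 0 h replicate 2, and 1 higher and 3 lower with the trends removed). The reductases AKR1B10 and AKR1C1 changed by -0.81 and -0.72 and OSGIN1 by -0.92, while GCLC, of glutathione synthesis, rose by 0.46; AKR1C1 has close paralogues that may share its reads.

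Of 20 ERK feedback and early response genes 6 rose and 3 fell (median 0.11; 7 higher and 3 lower without 0 h replicate 2, and 4 higher with the trends removed). FOS was at 38.96, 41.8 and 42.2 CPM at 0 h and 57.8, 65.3 and 64.5 CPM at 48 h, with a fitted change of 0.62 log2 units (SE 0.10, adjusted p = 0.0235). The ERK phosphatase DUSP6 and the feedback inhibitor SPRY4 rose by 0.43 and 0.51, and FOSL1 fell by 0.43, which was -0.03 (adjusted p = 0.868) with the trends removed. Of 16 genes of epithelial to mesenchymal transition 5 rose and 2 fell (median 0.214; 7 higher and 4 lower without 0 h replicate 2, and 4 higher with the trends removed). VIM, vimentin, was at 182.2, 162 and 231 CPM at 0 h and 267, 365 and 362 CPM at 48 h, with a fitted change of 0.80 log2 units (SE 0.16, adjusted p = 0.036). The repressor ZEB2 rose by 1.09 and the matrix protein SPARC by 0.95, and the epithelial factor OVOL1 fell by 0.56, which was -0.35 (adjusted p = 0.0722) with the trends removed. Of 20 interferon-stimulated genes 1 fell (median 0.029), namely ISG15, a ubiquitin-like protein, at -0.82. That call was lost with the trends removed, and the counts were 5 higher and 2 lower without 0 h replicate 2.

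**Figure D5:**
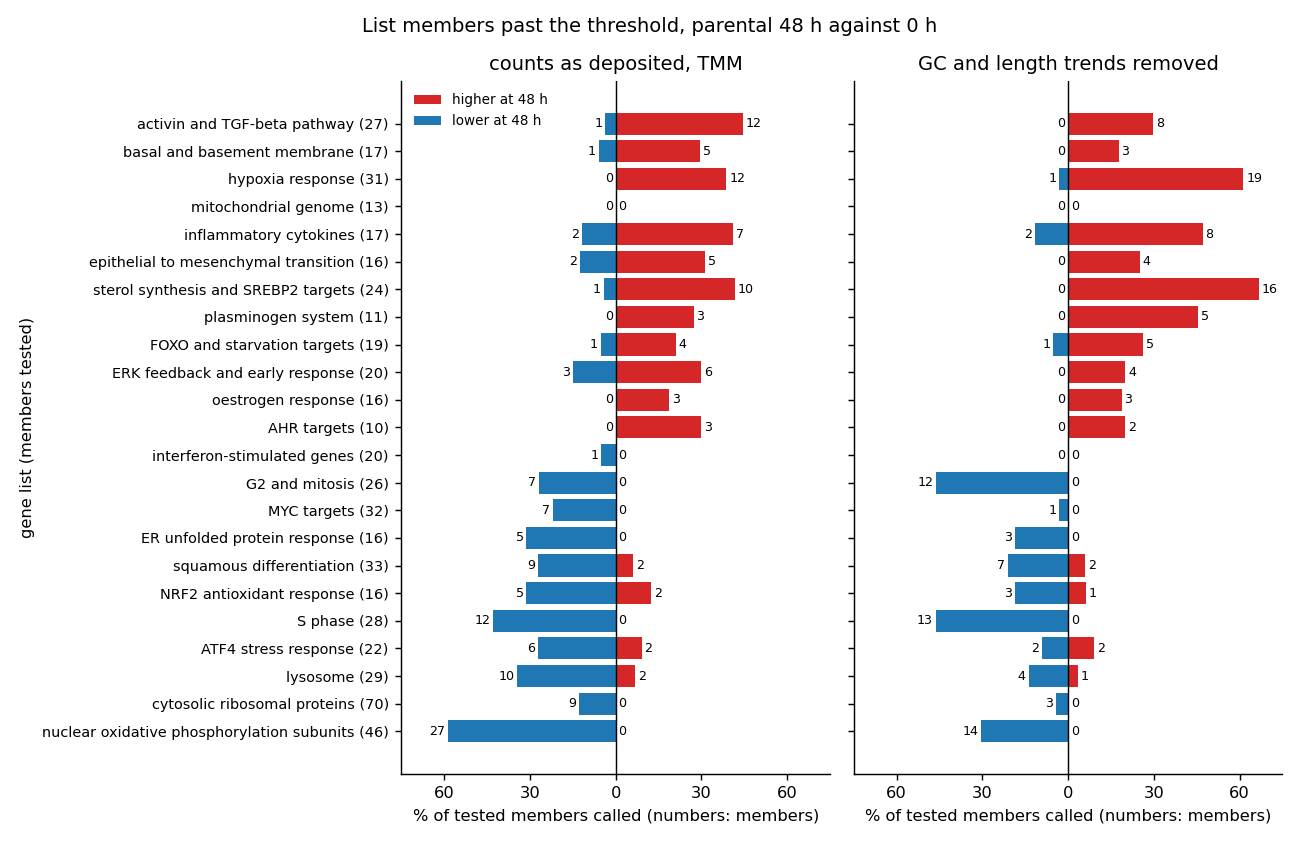
Share of each list's tested members called higher (red, right) or lower (blue, left) at 48 h, in % (horizontal axes; numbers are members), for the 23 lists ordered by median log2 change, as deposited (left panel) and with GC and length trends removed (right panel). Sterol and hypoxia members called higher go from 10 and 12 to 16 and 19, and respiratory chain subunits called lower go from 27 to 14.

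Markers of the cells the culture could hold were checked as well. The 6 basal markers summed to 24100 to 30100 CPM at 0 h and 19100 to 23400 CPM at 48 h, mostly from keratins. The keratins KRT5, KRT14 and KRT17 had log2 changes of -0.35, -0.65 and -0.40, while TP63, ITGA6 and ITGB4 had 0.59, 0.45 and 0.21. Among these only KRT14 and TP63 passed the threshold. The 7 testable luminal markers summed to 304 to 433 CPM at 0 h and 254 to 319 CPM at 48 h, mostly from KRT18. Of the other types, myoepithelial markers summed to 15.7 to 23 and 13.4 to 14 CPM, fibroblast markers to 116 to 132 and 93.1 to 108 CPM (COL1A1 and DCN), leukocyte markers (CD14 alone) to 6.07 to 9.03 and 4.63 to 5.83 CPM, endothelial markers to 1.22 to 1.33 and 2.2 to 2.99 CPM, and adipocyte markers to 0.517 to 0.939 and 0.325 to 0.756 CPM. PGR, KIT, COL3A1, CDH5, PTPRC, CD3E and ADIPOQ had 0 counts in all 6 libraries. Of the markers tested, TAGLN, a contractile protein, was at 5.67, 3.26 and 7.74 CPM at 0 h and 1.67, 1.47 and 1.36 CPM at 48 h, with a fitted change of -1.88 log2 units (SE 0.28, adjusted p = 0.022), and COL1A1 fell by 0.39. PECAM1, TEK and PRLR rose by 0.86, 1.52 and 1.98, all from levels near 1 CPM or below. With the GC and length trends removed, PECAM1, PRLR, KRT14 and TP63 did not pass the threshold, and DCN passed it only then. The part of these markers in the gene lists was not tested. In bulk RNA a change in the number of cells of a type and a change per cell cannot be told apart.

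Against 24 h of 4-OHT, the 48 h cells differed at 1474 of 20592 genes (7.16%), 688 higher (3.34%), in a fit of the 12 parental libraries. The count for parental 48 h against 24 h was 701 to 836 without any 1 of the 24 h replicates or of 48 h replicates 1 and 2, and 2765 without 0 h replicate 2. This comparison shares the 48 h libraries with the main comparison, so the values are given only side by side. The cholesterol genes had a median difference of 0.025 from 24 h, and HMGCS1 was at 293 ± 5.17 CPM at 24 h and 285 ± 12.3 CPM at 48 h (SD, n = 3), a log2 difference of -0.04 (adjusted p = 0.869). Replication and mitosis genes passed the threshold as lower at 48 h than at 24 h in 25 of 28 and 19 of 26 cases, with medians of -0.486 and -0.415. FEN1 was at 97.5 ± 2.34 CPM at 24 h and 62.9 ± 5.9 CPM at 48 h, a log2 difference of -0.63 (adjusted p = 7.37e-04).

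Of 11 plasminogen genes 7 were called lower and 1 higher at 48 h than at 24 h, and of 17 basal and basement membrane genes 5 lower and 1 higher. INHBA was at 30.8 ± 1.24 CPM at 24 h and 18.1 ± 1.75 CPM at 48 h, a difference of -0.76 (adjusted p = 0.0153). SERPINB2 was at 11.4 ± 1.099 and 3.71 ± 0.645 CPM, a difference of -1.62 (adjusted p = 7.28e-04). KRT10 was the reverse: it was at 134 ± 1.84 CPM at 24 h and 197 ± 19.3 CPM at 48 h, a difference of 0.55 (adjusted p = 0.00437), still far below its 0 h level. Of the 24 named genes, 3 rises and 7 falls differed between 24 and 48 h.

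The MYC-ER line received the same 4-OHT, and the difference between the lines was tested as an interaction (change in MYC-ER less that in parental cells) over 12 libraries. It passed the threshold at 8606 of 21437 genes (40.1%), 4496 of them positive (21%), a share of 52.2% of calls that was 66.4% with library size alone as the scaling. The comparison uses the parental change itself, so the changes are set side by side. Sterol genes had a median change of 0.204 in parental and 1.094 in MYC-ER cells, and 19 of 24 differed between the lines. S phase genes had medians of -0.226 and 1.027, with 22 of 28 different, and G2 and mitosis genes -0.075 and 4.074, with 26 of 26 different. HMGCS1 changed by 0.97 in parental and 1.98 in MYC-ER cells, and KRT10 by -1.45 and -5.87.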

How the data were processed

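RNA was measured in 24 libraries from 3D cultures, of which the 3 parental 0 h and 3 parental 48 h libraries make the comparison, with groups and replicate numbers taken from the labels. Per the labels' protocols the libraries were stranded and poly(A)-selected, with 150-base paired reads. Per the submitters' processing notes the tools were Trimmomatic 0.39, STAR and StringTie 2.1.3b, and the build was GRCh38; their settings, the annotation release and the use of strand are not given in the sources used here. The deposited values are counts per gene, not normalised. Where StringTie's count script was used they are derived from coverage and are estimates.

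Of 60668 genes, those passing edgeR's filterByExpr were tested in edgeR 4.0.16 (R 4.3.3, limma 3.58.1) with TMM scaling, the quasi-likelihood F test, two-sided, and Benjamini-Hochberg adjustment over all genes tested, threshold 0.05. Only the 2 groups compared entered the main fit, because an earlier analysis of these data found that the parental 0 h libraries vary more. The biological coefficient of variation was 0.191. The test was tried on simulated counts for 19413 genes of this comparison (coefficient of variation 0.19). It recovered 16.4% of 67 genes changed 1.5-fold, 80.6% of 67 changed 2-fold and 100% of 66 changed 4-fold. It called 8 of 19213 unchanged genes. The changed genes were drawn only from genes above a minimum mean level, so the recovery rates do not cover genes below it. The simulated libraries all had the same spread and shared no trend with GC content. The real groups had median SDs of 0.2386 at 0 h and 0.14 at 48 h, and 0 h replicate 2 followed such a trend. These rates may therefore not hold for the real counts. GC content and length are those of the longest GENCODE transcript, protein-coding ones preferred, known for 98.6% of genes tested; each library's lowess trends (span 0.3) were removed through offsets. This definition replaced the median over all transcripts after the trends had been looked at, and the earlier definition is kept as an added alternative. Named genes are the 12 largest rises and 12 largest falls with adjusted p under 0.05, a symbol, at least 10 CPM in the higher group and no overlap; list members in the text were picked after their values were seen. The members, the 23 lists (566 genes, 549 tested) and the tests were chosen with earlier results of these data known. Some list members enter the counts but are not reported here by name. Promoters are RefSeq's. The labels do not say whether same-numbered libraries were made together. Their deviations correlated at 0.0077, -0.0224 and 0.0519, and those of differently numbered libraries at -0.0871 to 0.0787. These values show no sign of pairing by number, but so few libraries cannot exclude it. Other scalings, filters, DESeq2 1.42.0, limma voom, pooled fits and fits without each library were tried as alternatives.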

Additional observations from a re-analysis of the deposited data

Results flagged for a closer look

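The parental change was tested against the change of the MYC-ER line under the same 4-OHT (edgeR's quasi-likelihood test of the interaction, Benjamini-Hochberg adjusted over all genes tested). The difference, MYC-ER minus parental on the log2 scale, passed the threshold for 93 of the 120 called genes among the 126 tracked by name. The called genes PECAM1, TEK, PRLR, ISG15, STC1, KRT74 and KRT73 are named in the text but were not among those tracked. The difference was positive for 60 of the 93, and the change had opposite signs in the lines for 49. Over all genes 40.1% passed, and a gene chosen for its parental change enters this difference with that change. All values are that difference in log2 units, with 3 libraries in each of the 4 groups. Among the 24 genes of the largest changes, the difference was -0.87 for DEPP1, 2.47 for EGLN3, 1.33 for INHBA, 1.44 for LOXL2, -1.79 for REL, -1.01 for ITGB8, 0.66 for SLITRK6, 0.58 for SEMA6A, -4.42 for KRT10, -3.04 for KRT16, 0.54 for S100P, 2.01 for H1-2, 0.94 for C11orf98, 1.63 for S100A4 and 0.94 for S100A9. Among sterol synthesis and SREBP2 targets, the difference was 1.01 for HMGCS1, 1.25 for INSIG1, 0.51 for MSMO1, -0.52 for SC5D, 0.32 for CYP51A1, 0.90 for IDI1 and 0.74 for PMVK. Among hypoxia response genes, the difference was 4.99 for CA9, -0.63 for BNIP3L, -1.07 for KDM3A, 0.94 for BHLHE40, -0.50 for MXI1 and 1.38 for ENO2. Among oestrogen response genes, the difference was -1.33 for CA12, -1.26 for NRIP1 and 0.28 for CELSR2. Among FOXO and starvation targets, the difference was -1.15 for KLF9, -0.68 for CCNG2 and -0.63 for PINK1. Among activin and TGF-beta pathway genes, the difference was -2.41 for INHBB, -0.45 for FSTL3, 1.43 for THBS1, 0.46 for LTBP1, 1.27 for LTBP2, -0.71 for TGFBR1, -1.16 for TGFBR2 and -0.87 for SMAD4. Among squamous differentiation genes, the difference was 0.47 for KRT6B, 1.64 for SPRR1A, 2.17 for SPRR1B, 2.01 for PI3 and -1.53 for DSG1. Among basal and basement membrane genes, the difference was 1.26 for KRT14, -0.53 for LAMA3, -0.60 for TP63 and 1.33 for COL4A1. Among plasminogen system genes, the difference was -1.90 for SERPINB2. Among S phase genes, the difference was 2.82 for E2F1, 3.60 for GINS2, 1.55 for FEN1, 4.48 for CDT1, 5.18 for CDC45, 1.76 for CDC6 and 0.74 for PCNA. Among G2 and mitosis genes, the difference was 6.36 for BIRC5, 6.56 for UBE2C, 6.27 for CDC20 and 4.59 for CCNB2. Among MYC targets, the difference was 1.01 for CCND2 and 1.24 for ODC1. Among nuclear oxidative phosphorylation subunits, the difference was 0.96 for ATP5F1D, 0.87 for UQCRQ and 0.77 for NDUFB7. Among inflammatory cytokines, the difference was 0.80 for CCL20, 0.77 for IL1B, -0.49 for TNFAIP3 and 1.98 for CXCL8. Among AHR targets, the difference was -0.95 for AHR, -1.24 for TIPARP and -0.51 for ALDH1A3. Among ATF4 stress response genes, the difference was 1.00 for NUPR1. Among ER unfolded protein response genes, the difference was 0.64 for CALR. Among NRF2 antioxidant response genes, the difference was -0.82 for AKR1C1, 1.17 for AKR1B10 and 1.24 for OSGIN1. Among ERK feedback and early response genes, the difference was -1.60 for FOS, 2.29 for DUSP6, 2.45 for SPRY4 and 0.65 for FOSL1. Among epithelial to mesenchymal transition genes, the difference was 1.64 for VIM, -2.06 for ZEB2, 1.81 for SPARC and -0.67 for OVOL1. Among lysosome genes, the difference was 0.44 for CTSD, -0.81 for LAMP2 and 0.50 for TFEB. Among myoepithelial markers, the difference was 2.81 for TAGLN. Among fibroblast markers, the difference was -1.05 for COL1A1.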

How the results depend on the processing

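The count of 3274 genes for parental 48 h against 0 h and that of 319 at least 2-fold depended on the processing. They were 1302 and 197 with library size alone, 13 and 12 with no filter on low counts, 9852 and 1324 with limma voom and sample weights, and 8978 and 581 with all 24 libraries; the first was 5426 with DESeq2 and 7239 with the 12 parental libraries. They were 2038 and 183 with the GC trend removed, 1771 and 149 with GC and length, 1856 and 178 with GC and length as medians over transcripts (added after seeing the data), and 898 and 122 with GC and length plus the replicate block. The replicate block alone gave 2779 (61.2% higher, against 50%) and 400; it changed no list median beyond its spread. Leaving out 1 library gave 4 to 7888 and 4 to 1069. The cause of these differences was not tested.

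The 1474 genes for parental 48 h against 24 h were 2319 with DESeq2, 4366 with voom, 2927 with all libraries, 2333, 3118 and 2397 with the GC, GC and length, and transcript-median trends removed, 2887 with the block added, and 701 to 2765 without 1 library. Interaction counts stayed within 1.5 times, but 66.4% of calls were positive with library size alone against 52.2%.

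Median log2 changes of lists moved beyond their spread as follows. Library size alone gave sterol 0.257, plasminogen 0.244 and interferon 0.086, upper quartile scaling sterol 0.152 and plasminogen 0.14, and voom AHR 0.164 and mitochondrial genome 0.809. Removing the GC trend gave sterol 0.295, lysosome -0.103, AHR 0.203, hypoxia 0.439, activin 0.213, plasminogen 0.308, ATF4 -0.106, inflammatory 0.151 and G2 and mitosis -0.217. Removing GC and length gave sterol 0.321, lysosome -0.051, AHR 0.164, activin 0.21, squamous 0.236, basal 0.166, plasminogen 0.345, ATF4 -0.091, NRF2 -0.091, inflammatory 0.386, mesenchymal 0.149, MYC targets 0.015, G2 and mitosis -0.229, ribosomal -0.149 and oxidative phosphorylation -0.175. With the replicate block added these were 0.323, -0.046, 0.159, 0.21, 0.177, 0.163, 0.345, -0.093, -0.089, 0.384, 0.152, 0.016, -0.23, -0.142 and -0.175. Medians over transcripts gave sterol 0.276, lysosome -0.118, AHR 0.204, oestrogen 0.166, hypoxia 0.481, activin 0.279, basal 0.281, plasminogen 0.284, ATF4 -0.155, unfolded protein response -0.346, NRF2 -0.136, interferon -0.063, mesenchymal 0.118 and G2 and mitosis -0.267. Squamous and MYC target medians thus changed sign with GC and length removed, and the interferon median with medians over transcripts, upper quartile scaling (-0.022) and voom (-0.02); the cause was not tested.

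Without 1 library the medians ran from 0.162 to 0.26 (sterol), -0.345 to -0.194 (lysosome), 0.009 to 0.144 (AHR), 0.223 to 0.382 (basal), 0.14 to 0.222 (plasminogen), -0.271 to -0.156 (ATF4), 0.178 to 0.342 (inflammatory), -0.302 to -0.189 (S phase) and -0.49 to -0.214 (ribosomal). Squamous (-0.46 to 0.001), G2 and mitosis (-0.131 to 0.009), mitochondrial genome (-0.049 to 0.411) and interferon (-0.014 to 0.082) medians changed sign there. The mitochondrial share differed by -0.0562 to 1.65 points, and the number of genes with at least 10 counts by -377 to 217.

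Of the 126 genes tracked by name, 6 changed sign under some alternative. MYC was 0.0417 with library size alone, 0.0248 without a filter, 0.1427 with voom, 0.1231, 0.1998 and 0.2213 with the GC, GC and length, and transcript-median trends removed, 0.2074 with the block added, and 0.0791 and 0.0445 without 0 h replicate 3 and 48 h replicate 1, within -0.1052 to 0.0791 over the fits without 1 library. CYP1B1 was 0.0773 with voom, 0.1435 with transcript medians and 0.148 without 0 h replicate 2, within -0.1898 to 0.148. CXCL8 was -0.0334 with the GC trend removed. With GC and length removed TGFBR1 was -0.0111, SMAD4 -0.0163 and MKI67 -0.292, and with the block added -0.0114, -0.0163 and -0.291; MKI67 was -0.0737 without 0 h replicate 3, within -0.0737 to 0.1145. Of the other values for single genes, 1655 kept direction and side of the threshold, 834 kept direction only and 11 passed the threshold in addition. A count of 0 allows up to 0.0219 CPM.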

Other observations

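Some of the largest changes lay below the level required for naming and were picked after their values were seen. STC1, a secreted glycoprotein induced by low oxygen, was at 0.239, 0.0971 and 0.101 CPM at 0 h and 1.21, 3.07 and 2.04 CPM at 48 h, with a fitted change of 3.86 log2 units (SE 0.45, adjusted p = 0.0128). The inner root sheath keratins KRT74 and KRT73 were at 0.0368, 0.0514 and 0 CPM at 0 h and 2.74, 0.255 and 0.747 CPM at 48 h for KRT74 and 0.04296, 0.0286 and 0.202 CPM at 0 h and 2.42, 0.255 and 0.733 CPM at 48 h for KRT73, with log2 changes of 5.37 (adjusted p = 0.0354) and 3.64 (adjusted p = 0.0375). At 48 h their replicate 1 was the highest by over 3-fold, and the 8 h libraries ranged from 0.646 to 7.71 CPM for KRT74. Such fitted changes from groups near 0 depend on the prior count and are not bounds.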
